A study of Mus musculus with 18 samples.

Results

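The vacuolar ATPase is the proton pump that acidifies lysosomes, and the genes of its subunits were examined here together with genes of the lysosome itself in the translated RNA of cortical astrocytes. The 43 genes were listed by their known function, with no measured value in the rule, but with earlier results of these data known. They comprise 18 pump genes (7 subunits of the membrane sector V0, 9 of the ATP-hydrolysing sector V1 and 2 accessory proteins) and 25 lysosomal genes (6 membrane proteins, 6 proteases, 8 glycosidases, 3 genes of lipid breakdown, the transcription factor Tfeb and the luminal glycoprotein Grn). All 43 were found among the 21923 genes of the count table.

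Male C57BL/6 mice of both groups carried the tamoxifen-inducible GLAST-CreERT2 allele, which drives Cre in astrocytes and related GLAST-expressing cells, and all received tamoxifen at 8 to 10 weeks of age. The groups were control mice, labelled GLAC +/wt and with both copies of GLUT1 intact, and cKO mice, labelled GLUT1 flox/flox;GLAC +/wt, in which Cre deletes the floxed part of Slc2a1, the gene of the glucose transporter GLUT1. An AAV-PHP.eB vector injected into the blood had delivered a Cre-dependent EGFP-tagged ribosomal protein L10a under a human GFAP promoter, so that only cells reached by the vector and by Cre were tagged. Cortical RNA was taken at least 60 days after tamoxifen, and tagged ribosomes were pulled down with their mRNA (translating ribosome affinity purification, TRAP) to give the immunoprecipitated (IP) libraries. The labels list 5 control and 4 cKO IP samples, each with its own animal, and the study left out IP samples of low depth or high neuronal RNA without naming them. The 3 control IP libraries (AstroTRAP_11, AstroTRAP_15 and AstroTRAP_19) and 4 cKO IP libraries (AstroTRAP_1, AstroTRAP_5, AstroTRAP_9 and AstroTRAP_17) whose genotype the study's source data name were compared. Ratios of IP to input were not analysed here, since no source used here names which count columns are input libraries.

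Lysosomes receive material from endocytosis and autophagy and break it down with hydrolases that work best at acid pH. The pump supplies the acid: V1 splits ATP in the cytosol and the energy drives protons through V0 in the membrane. Many lysosomal and pump genes share a promoter element built on the letters CACGTG, which is bound by TFEB and its relatives as well as by other factors of the same structural class. Astrocytes use lysosomes to clear debris and to degrade glycogen that enters by autophagy.

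The promoters were therefore read for these letters in the RefSeq windows for GRCm38.p6, from 250 bases before to 50 bases after an annotated start. A window was given for 36 of the 43 genes. The 7 without an entry were Asah1, Atp6v0a2, Atp6v1b2, Atp6v1c1, Atp6v1g1, Atp6v1h and Ctsb. CACGTG, which reads alike on both strands, was present in 14 of the 36 (38.9%), against 11.65% of the 9915 tested genes with a window and 8.09% of all 27025 genes with one. By group it was present in 10 of 23 lysosomal genes (43.5%) and 4 of 13 pump genes (30.8%). The longer palindrome TCACGTGA, which contains CACGTG, was present in 8 genes (22.2%), namely Atp6v0d1, Atp6v0e, Atp6v1a, Cln3, Ctsa, Ctsd, Gla and Mcoln1, against 2.16% of tested genes. The same palindrome with a G before it and a C after it was present in Cln3, and in 0.787% of tested genes.

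Stretches of 8 promoters are shown because they carry long or repeated matches. They end before the annotated start and are written 5′ to 3′ on the strand of the gene, with CACGTG in capitals, along with an adjoining GT or T before it and A or AC after it. They lie at chr8:13159079-13159160 (Lamp1, plus strand), chr8:3500426-3500501 (Mcoln1, plus), chr7:126583330-126583405 (Cln3, minus), chr7:142387898-142387946 (Ctsd, minus), chr2:164833739-164833772 (Ctsa, plus), chrX:134601173-134601253 (Gla, minus), chr16:44139364-44139411 (Atp6v1a, minus) and chr4:117887330-117887387 (Atp6v0b, minus).
Lamp1: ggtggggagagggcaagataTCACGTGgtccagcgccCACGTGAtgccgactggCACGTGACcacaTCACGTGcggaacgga
Mcoln1: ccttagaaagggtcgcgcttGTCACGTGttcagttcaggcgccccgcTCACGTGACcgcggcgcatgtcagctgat
Cln3: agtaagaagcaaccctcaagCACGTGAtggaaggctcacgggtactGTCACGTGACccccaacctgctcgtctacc
Ctsd: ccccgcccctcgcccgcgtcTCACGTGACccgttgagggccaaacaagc
Ctsa: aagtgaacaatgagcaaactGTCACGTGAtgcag
Gla: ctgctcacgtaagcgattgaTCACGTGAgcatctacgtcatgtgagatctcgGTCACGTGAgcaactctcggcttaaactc
Atp6v1a: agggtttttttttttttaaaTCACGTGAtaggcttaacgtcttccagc
Atp6v0b: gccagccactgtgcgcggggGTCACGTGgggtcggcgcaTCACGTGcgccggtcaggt
Lamp1 held 4 copies within 82 bases, the most of the stretches shown, and Mcoln1, Cln3, Gla and Atp6v0b held 2 each. A match describes the sequence and is not evidence that a factor was bound in these cells.

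Depth was 40.7 M, 28.9 M and 19.3 M estimated counts in the control libraries and 18.6 M, 24.2 M, 19.99 M and 12.6 M in the cKO libraries. CPM are counts divided by the library's total in M counts. After TMM scaling of that total, 3 counts correspond to at most 0.222 CPM. Levels are CPM after TMM scaling, a correction for differences in RNA composition between libraries. They are not divided by transcript length, so they compare a gene between libraries and not genes with each other. Slc2a1 itself lay at 59.5 ± 2.02 CPM (SD, n = 3) in control and 59.0 ± 2.30 CPM (SD, n = 4) in cKO IP libraries (two-sided exact permutation p = 0.857, with 0.0571 the smallest this design can give). The sign of its log2 fold change, -0.01, turned to 0.01 without AstroTRAP_11 and to 0.0078 without AstroTRAP_5. With all libraries, the 95% interval of this log2 fold change was -0.28 to 0.25, so the gene-level count gave no check of the labels. Such a count can include exons outside the floxed part, but their share in it was not examined. The study itself reported fewer Slc2a1 reads over part of the exons in cKO than in control IP samples, and less Slc2a1 RNA by qPCR. Both reported falls were larger than any fall inside the interval given here. Counts per exon were not analysed here, and why the gene-level count did not fall was not tested. The summed CPM of 7 astrocyte markers was 26947 to 42183 in control and 26997 to 52441 in cKO libraries. Sums of 6 neuron markers were 2480 to 3041 and 2054 to 3110.0 CPM, and sums of 6 oligodendrocyte markers were 716 to 799 and 448 to 840 CPM (lowest and highest library, control then cKO). Of 5 endothelial markers, Pecam1, Cdh5 and Kdr had too few counts to be tested, and Kdr was at 0 counts in every control library.

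All 43 genes were detected in every library, the lowest count being 37 and 38 genes lying at or above 10 CPM throughout. None of the 43 passed an adjusted p of 0.05 between cKO and control (edgeR's quasi-likelihood test, Benjamini-Hochberg over all 13296 genes tested). Among all genes tested 0.0451% did. None had an unadjusted p under 0.05 either, against 2.58% of all genes (1.44% higher and 1.14% lower in cKO), and the lowest was 0.103 for Gusb. By edgeR's exact test and by DESeq2 0 of the 43 were called, where 0.135% and 0.158% of all genes were. In these IP libraries, fewer tagged cells of a type and less RNA per cell cannot be told apart.

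The intervals limit how large a difference could have been missed. For 33 of the 43 genes the 95% interval of the fold change lay within 1.5-fold in either direction, which 36.1% of all tested genes reached. Of tested genes at or above the level of the lowest of the 43, 49.7% reached it. The 43 were mostly of high level, with a median percentile of 91.3 among tested genes, so these shares are not matched for level. The 10 of the 43 that did not reach it were Atp6v1g2, Scarb2, Cln3, Gla, Glb1, Gusb, Man2b1, Naglu, Neu1 and Tfeb. Of these only Gla and Glb1 had an interval that reached beyond 2-fold. For 36 genes the group means lay closer together than the SD of the more variable genotype, and the other 7, all lower in cKO, were Atp6v1b2, Atp6v1c1, Atp6ap1, Scarb2, Ctsz, Gusb and Neu1.

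**Figure D1:**
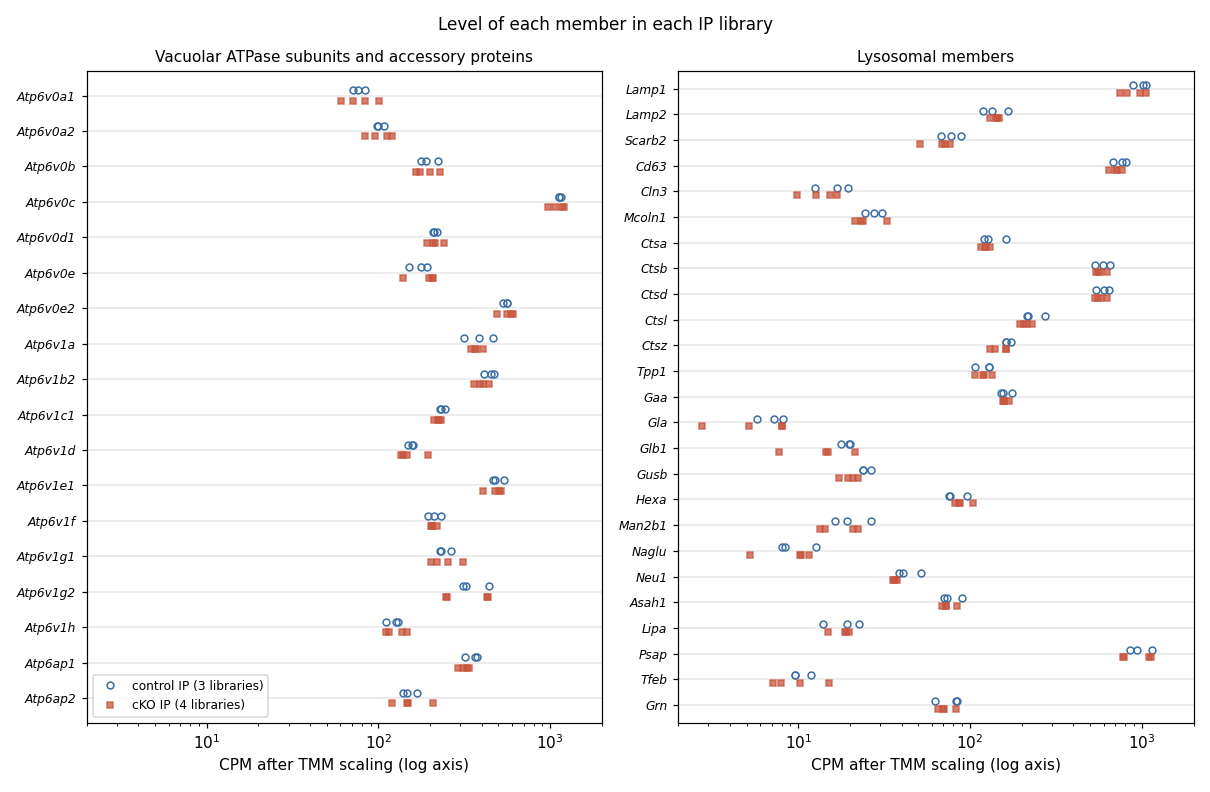
CPM after TMM scaling (log axis) of each of the 43 genes in the 3 control IP libraries (open circles) and 4 cKO IP libraries (filled squares), pump genes left and lysosomal genes right. Levels span 2.74 to 1210.0 CPM, and for 40 genes the points of the genotypes overlap, the exceptions being Ctsz, Gusb and Neu1.

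**Figure D2:**
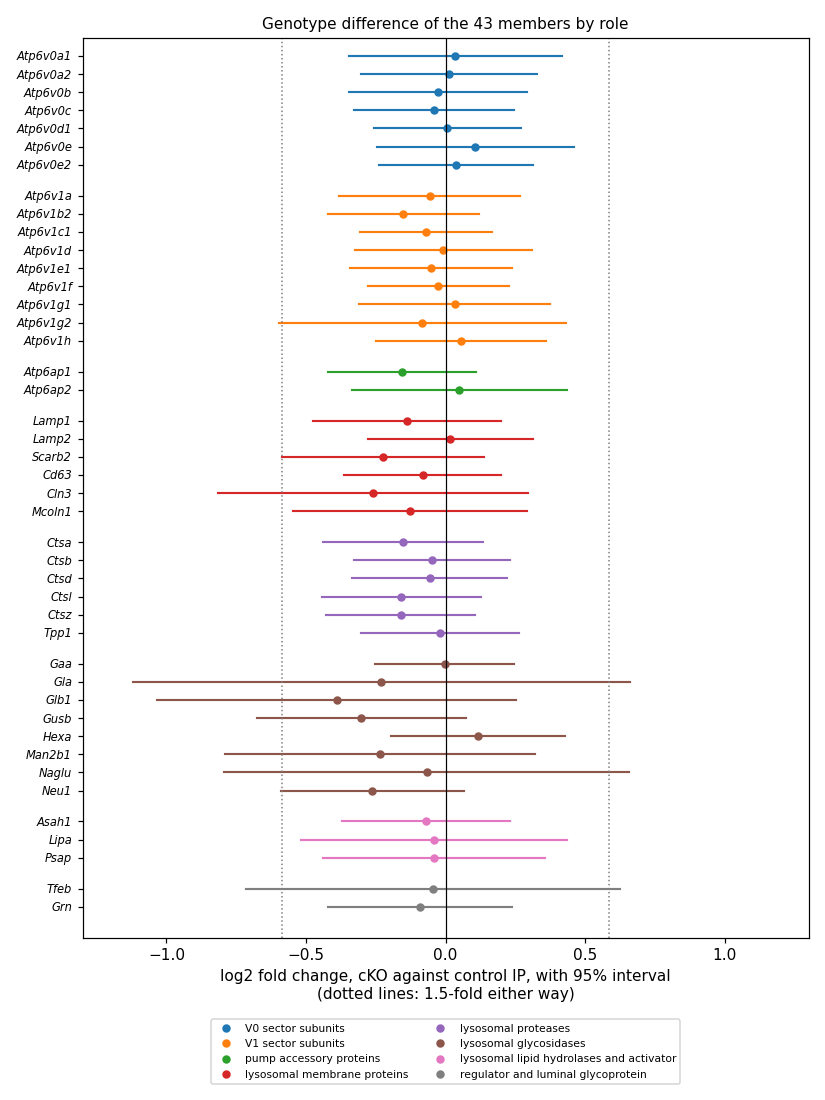
log2 fold change, cKO against control, of each gene (point) with its 95% interval (line), coloured by role, the dotted lines marking 1.5-fold in either direction. Every interval includes 0, and those of Gla and Glb1 reach furthest below 0.

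No V0 gene passed the test, and the sector as a whole lay at nearly the same level in both genotypes. Its 7 genes summed to 2446 ± 33.9 CPM (SD, n = 3) in control and 2441 ± 106 CPM (SD, n = 4) in cKO libraries, with 5 log2 fold changes above 0, 2 below and a median of 0.012. Atp6v0c, the subunit that makes up most of the proton-carrying ring, lay at 1155, 1131 and 1120 CPM in control and at 1170, 1065, 965 and 1210.0 CPM in cKO libraries. The cKO libraries lay on both sides of the control libraries, and the log2 fold change was -0.04 (SE 0.13). RefSeq lists 2 pseudogenes of Atp6v0c that had no row in the count table, so its count is less certain.

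The a subunit forms the path of the protons next to the ring and exists in several isoforms that differ in where they place the pump. Atp6v0a1 lay at 71.5, 83.6 and 76.0 CPM in control and at 70.8, 83.5, 60.7 and 101 CPM in cKO libraries, a log2 fold change of 0.04 (SE 0.17). Atp6v0a2 lay at 108, 100.1 and 97.9 CPM against 112, 95.7, 119.8 and 83.8 CPM, a log2 fold change of 0.01 (SE 0.14). The cKO library with the most Atp6v0a1, AstroTRAP_17, had the least Atp6v0a2, and in AstroTRAP_9 the order was the opposite. As a share of the counts of both genes, Atp6v0a2 took 54.5% to 60.2% in control and 45.4% to 66.4% in cKO libraries.

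The small e subunit is also encoded by a pair of paralogues. Atp6v0e lay at 193, 151 and 177 CPM in control and at 207, 198, 204 and 139 CPM in cKO libraries, the highest positive log2 fold change of the pump genes at 0.11 (SE 0.16). In cKO, 3 libraries lay above all control libraries and AstroTRAP_17 below all of them. Atp6v0e2 lay at 557, 559 and 531 CPM against 595, 610.3, 559 and 490.4 CPM, a log2 fold change of 0.04 (SE 0.12) with the same library lowest. Atp6v0e took 21.2% to 25.7% of the counts of the pair in control and 22.1% to 26.8% in cKO libraries.

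Atp6v0b, which encodes the ring subunit c″ and whose promoter stretch is shown above, is the pump gene closest to Slc2a1, at chr4:117884330-117887333 (GRCm38.p6) and 1.22 Mb away. It lay at 189, 177 and 222 CPM in control and at 174, 228, 166 and 201 CPM in cKO libraries. The cKO range enclosed the control range, and the log2 fold change was -0.03 (SE 0.14). The remaining V0 gene, Atp6v0d1, whose product joins the ring to the central stalk, had a log2 fold change of 0.01 (SE 0.12).

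The V1 sector summed to 2648 ± 77.2 CPM (SD, n = 3) in control and 2545 ± 109.8 CPM (SD, n = 4) in cKO libraries, a difference smaller than the cKO SD. Of its 9 genes 7 had a log2 fold change below 0 and 2 above, with a median of -0.054. The A and B subunits form the ring that splits ATP, and Atp6v1a had a log2 fold change of -0.06 (SE 0.15) and Atp6v1b2 one of -0.15 (SE 0.12). Atp6v1e1, a peripheral stalk subunit and the V1 gene of highest mean CPM, lay at 464, 537 and 479 CPM in control and at 474, 516, 406 and 505 CPM in cKO libraries. All but 1 of the cKO values fell inside the control range, and the log2 fold change was -0.05 (SE 0.13). Atp6v1c1 and Atp6v1h, regulatory subunits, and Atp6v1d and Atp6v1f, of the central stalk, had log2 fold changes between -0.07 and 0.06. The ratio of summed V1 to summed V0 counts was 1.04 to 1.13 in control and 0.998 to 1.08 in cKO libraries.

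The G subunits of the peripheral stalk varied in opposite directions between libraries, across both genotypes. Atp6v1g2, the isoform known from neurons, lay at 312, 325 and 442 CPM in control and at 249.9, 437, 246 and 426 CPM in cKO libraries. The 3 high values, in AstroTRAP_19, AstroTRAP_5 and AstroTRAP_17, came from both genotypes. The log2 fold change was -0.08 (SE 0.23). Atp6v1g1, the isoform found in most tissues, lay at 263, 231 and 229 CPM against 253, 221, 310.1 and 204 CPM, a log2 fold change of 0.03 (SE 0.15), and was lowest in the same 3 libraries. As a share of the counts of both genes, Atp6v1g2 took 65.9%, 66.4% and 67.7% in those 3 libraries and 44.2% to 58.4% in the other 4.

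The summed neuron markers were highest in the same 3 libraries, at 3041 CPM in AstroTRAP_19, 3110.0 CPM in AstroTRAP_5 and 3089 CPM in AstroTRAP_17, against 2054 to 2538 CPM in the other 4. Snap25, the largest part of the sum, Rbfox3, Syt1 and Stmn2 were each highest in these libraries. Gad1 went the other way, at 29.0, 23.7 and 34.3 CPM against 39.6 to 61.4 CPM. Slc17a7 was highest in AstroTRAP_5 (23.4 CPM) and lowest in AstroTRAP_17 (8.37 CPM). The summed astrocyte markers were lowest in the same 3 libraries, at 26947, 28328 and 26997 CPM against 35118 to 52441 CPM. Aldoc, the largest part of the sum, Slc1a2, Slc1a3, Aqp4 and Gjb6 were each lowest in these libraries. Gja1, at 1042 to 1233 CPM over all libraries, and Aldh1l1 did not separate them from the others. The summed microglia markers were highest in these 3 libraries as well, at 77.4, 99.5 and 85.3 CPM against 48.9 to 62.2 CPM. C1qa and C1qb followed this sum, but Cx3cr1 and P2ry12 did not separate these libraries from the others. Tmem119 (4.45 CPM) and Csf1r (14.2 CPM) were at their lowest in AstroTRAP_17. The part of other cell types in the level of Atp6v1g2 was not tested. Its span overlaps that of Nfkbil1 in RefSeq, and the libraries carry no strand information, so reads of the overlap cannot be assigned by strand.

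**Figure D3:**
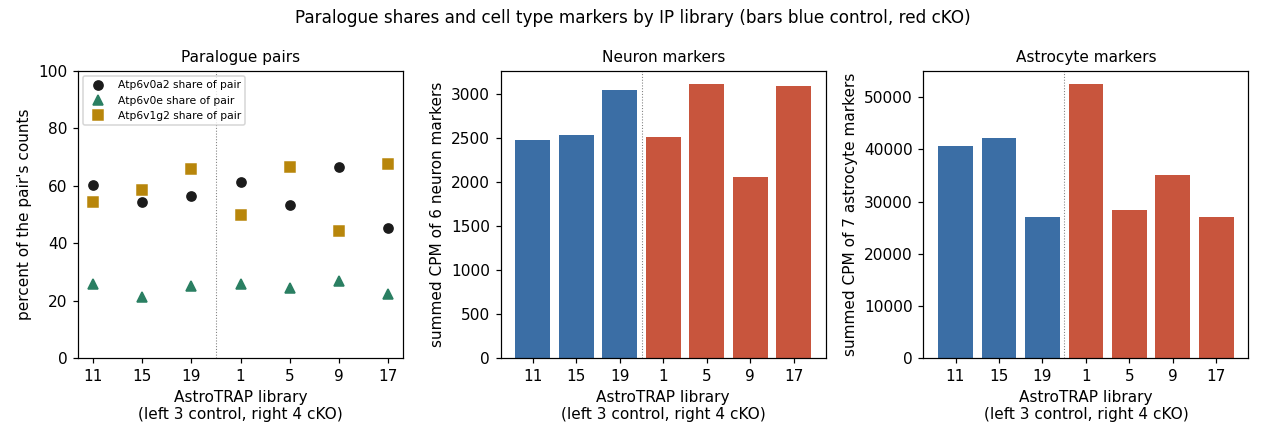
Share of 1 paralogue in the counts of each of 3 pump subunit pairs (left, percent), and summed CPM of neuron markers (middle) and astrocyte markers (right) in each IP library, bars blue for control and red for cKO. The Atp6v1g2 share and the summed neuron markers are highest in AstroTRAP_19, AstroTRAP_5 and AstroTRAP_17, the libraries in which the summed astrocyte markers are lowest. Gad1, which is part of the neuron sum, is lowest in these libraries.

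Of the accessory proteins, Atp6ap1, which helps to assemble V0, lay at 364, 373 and 318 CPM in control and at 335, 329, 290.3 and 309 CPM in cKO libraries. The log2 fold change of -0.16 (SE 0.12, 95% interval -0.42 to 0.11) was the lowest of the 18 pump genes. In control, AstroTRAP_19 lay among the cKO libraries. Atp6ap2, also called the prorenin receptor, had a log2 fold change of 0.05 (SE 0.17). Across all 18 pump genes 8 log2 fold changes were above 0 and 10 below, with a median of -0.017, beside a median of 0.012 and 52.3% above 0 for all genes tested. Summed pump genes came to 5597 ± 66.9 CPM (SD, n = 3) in control and 5459 ± 238 CPM (SD, n = 4) in cKO libraries.

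Most of the lysosomal genes had a slightly lower mean in cKO. A log2 fold change below 0 was found for 23 of the 25 (52.3% of all genes tested had one above 0), the exceptions being Hexa (0.12, SE 0.14) and Lamp2 (0.02, SE 0.13), and the median was -0.091. No single gene passed the test. The count depended on 1 control library, AstroTRAP_15, in which 19 of the 25 lay above the control mean. Without it 16 of the 25 were below 0 and the median was -0.037, and without AstroTRAP_19 24 were below 0 and the median was -0.16. Because the 25 genes were read in the same 7 libraries they are not independent of each other. The summed lysosomal genes came to 5443, 5770 and 4938 CPM in control and 5584, 4822, 4915 and 5026 CPM in cKO libraries, so the ranges overlapped.

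**Figure D4:**
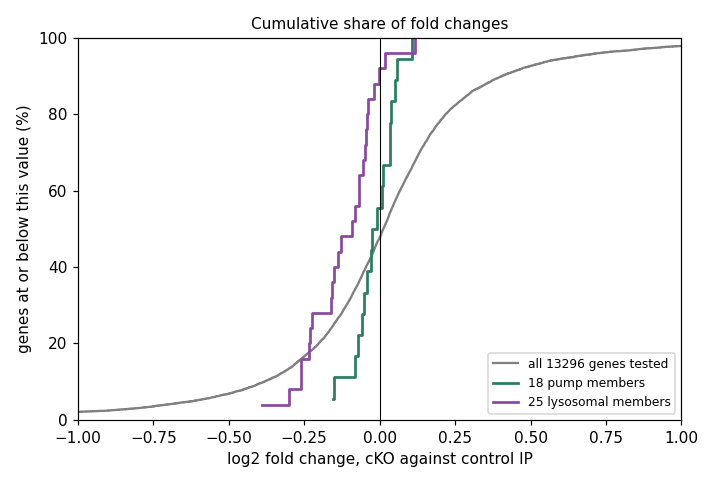
Cumulative share (percent) of genes at or below each log2 fold change, cKO against control, for all 13296 genes tested (grey), 18 pump genes (green) and 25 lysosomal genes (purple); the axis is cut at -1 and 1. The pump genes lie on both sides of 0, and 23 of the 25 lysosomal genes lie left of it with a median of -0.091, which moves to -0.037 without AstroTRAP_15.

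The lysosomal membrane proteins had a median log2 fold change of -0.13, with 5 of 6 below 0. Lamp1, a major glycoprotein of the lysosomal membrane and the gene with 4 promoter copies of CACGTG, lay at 1061, 1021 and 893 CPM in control and at 1053, 823, 980.4 and 748 CPM in cKO libraries. The 3 lowest values were those of AstroTRAP_17, AstroTRAP_5 and AstroTRAP_19, in both genotypes, and the log2 fold change was -0.14 (SE 0.15). Scarb2, the receptor that carries glucocerebrosidase to the lysosome, had a log2 fold change of -0.22 (SE 0.16), Cd63, a tetraspanin, one of -0.08 (SE 0.13) and Mcoln1, a calcium release channel, one of -0.13 (SE 0.19). Cln3, the gene of juvenile Batten disease, lay between 9.86 and 19.6 CPM over the 7 libraries, with a log2 fold change of -0.26 (SE 0.25). RefSeq lists 1 pseudogene of Cd63 that had no row in the count table.

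All 6 proteases had a log2 fold change below 0, between -0.16 and -0.02, with a median of -0.10. Ctsd, the main aspartic protease of lysosomes, lay at 607, 644 and 539 CPM in control and at 628, 576, 532 and 558 CPM in cKO libraries. The ranges overlapped, and the log2 fold change was -0.06 (SE 0.13). Ctsz, a cysteine carboxypeptidase, lay at 162, 174 and 162 CPM in control and at 140.0, 161, 161 and 131 CPM in cKO libraries. Every cKO value was below every control value, by less than 1% between the nearest, and the log2 fold change was -0.16 (SE 0.12, 95% interval -0.43 to 0.11). Ctsa, which protects Neu1 and Glb1 from degradation, and Ctsl, a cysteine protease, had log2 fold changes of -0.15 (SE 0.13) and -0.16 (SE 0.13). Ctsb and Tpp1, a cysteine protease and a tripeptidyl peptidase, lay nearer to 0 at -0.05 and -0.02.

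The glycosidases, which remove sugars from glycoproteins, glycolipids and glycogen, had the lowest median of the roles at -0.23, with 7 of 8 below 0 and a median SE of 0.21. Gaa, which degrades glycogen inside lysosomes, was the glycosidase of highest mean CPM, and its highest library lay 1.17 times above its lowest. It lay at 155, 177 and 151 CPM in control and at 169, 157, 158 and 158 CPM in cKO libraries. The log2 fold change was -0.0038 (SE 0.11), with a 95% interval of -0.25 to 0.25. Gusb, the beta-glucuronidase, lay at 23.8, 23.8 and 26.3 CPM in control and at 20.8, 22.4, 17.2 and 19.6 CPM in cKO libraries, without overlap. Its log2 fold change was -0.30 (SE 0.17, 95% interval -0.68 to 0.07). Neu1, a sialidase, lay at 40.8, 38.5 and 51.8 CPM against 35.5, 37.4, 36.5 and 36.2 CPM, again without overlap. The cKO values were close together and the control values were spread by AstroTRAP_19, with a log2 fold change of -0.26 (SE 0.15, 95% interval -0.59 to 0.07).

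Ctsz, Gusb and Neu1 were the 3 of 43 genes whose genotypes did not overlap, beside 5.11% of all genes tested, which is close to their share. All 3 were lower in cKO, as were 2.76% of all genes without overlap, while 2.35% of all genes were higher without overlap. Under RLE scaling or library size alone 2 of the 43 did not overlap.

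The other glycosidases had lower counts or wider spreads. Glb1, the beta-galactosidase, had the lowest log2 fold change of the 43, -0.39 (SE 0.29). It lay at 19.97, 19.7 and 17.7 CPM in control and at 21.3, 14.8, 14.5 and 7.71 CPM in cKO libraries, from the highest to the lowest value of all 7 libraries within cKO. Gla, the alpha-galactosidase whose loss causes Fabry disease, had the fewest counts of the 43 genes, 5.74 to 8.18 CPM in control and 2.74 to 8.05 CPM in cKO libraries. Both were lowest in AstroTRAP_17, the library of least depth. Man2b1, an alpha-mannosidase, and Naglu, which degrades heparan sulfate, had log2 fold changes of -0.23 (SE 0.25) and -0.07 (SE 0.33). Hexa, a subunit of beta-hexosaminidase, lay at 75.3 to 96.6 CPM in control and 82.0 to 103 CPM in cKO libraries.

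The genes of lipid breakdown had log2 fold changes between -0.07 and -0.04. Psap encodes the precursor of the saposins, which present lipids to the hydrolases, and lay at 934, 1139 and 853 CPM in control and at 1126, 778, 786 and 1104 CPM in cKO libraries. The cKO values formed a high and a low pair on either side of most control values, and the log2 fold change was -0.04 (SE 0.18). Asah1, the acid ceramidase, and Lipa, the acid lipase, had log2 fold changes of -0.07 (SE 0.14) and -0.04 (SE 0.22).

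Tfeb, the transcription factor that binds the CACGTG element of lysosomal genes, lay at 9.56 to 11.9 CPM in control and 7.16 to 15.04 CPM in cKO libraries, with a log2 fold change of -0.05 (SE 0.30). The cKO range enclosed the control range. The RNA level of Tfeb does not measure its activity, which depends on its movement into the nucleus. Grn, the precursor of the granulins, lay at 82.8, 84.4 and 62.4 CPM against 82.8, 65.0, 69.2 and 70.6 CPM. All cKO values lay within the control range, and the log2 fold change was -0.09 (SE 0.15). The 14 genes with CACGTG in their window had a median log2 fold change of -0.099, and 12 of them were below 0. The 22 genes with a window but no CACGTG had a median of -0.044, with 17 below 0, and the difference was not tested.

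Microglia are rich in lysosomes. The summed microglia markers were 60.8, 62.2 and 77.4 CPM in control and 58.5, 99.5, 48.9 and 85.3 CPM in cKO libraries. In the same order, the summed lysosomal genes came to 5443, 5770 and 4938 CPM and to 5584, 4822, 4915 and 5026 CPM. The 6 oligodendrocyte markers summed to 762 ± 41.9 CPM (SD, n = 3) in control and 626 ± 164 CPM (SD, n = 4) in cKO libraries. The part of either cell type in the lysosomal values was not tested.

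The wider pathway was read from 72 further genes (other pump subunits and assembly factors, lysosomal enzymes, membrane and transport proteins, sorting receptors and nutrient signalling), of which 65 passed the filter on low counts. None was called by the quasi-likelihood test (background 0.0451%). The exact test called 2 (background 0.135%), and DESeq2 called the same 2 (background 0.158%). The 65 had 35 log2 fold changes above 0 and 30 below, with a median of 0.024. The genotypes did not overlap for 10 of the 65, 5 higher and 5 lower in cKO, beside 5.11% of all genes tested. Of the 7 pump subunits outside the 18, only Tcirg1, an a subunit isoform known from osteoclasts, was tested, with a log2 fold change of 0.49 (SE 0.27). It lay at 6.00, 7.63 and 7.07 CPM in control and at 9.81, 11.8, 8.05 and 9.04 CPM in cKO libraries, without overlap. Atp6v0d2, Atp6v1b1 and Atp6v1g3, known from bone, kidney or other specialised tissue, were at 0 counts in all 7 libraries. A count of 0 allows up to 0.222 CPM in the shallowest library, by counting error alone.

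Ppt1, a thioesterase that removes fatty acids from proteins, was 1 of the 2 enzymes called by the alternative tests. It lay at 130.2, 105 and 122 CPM in control and at 201, 203, 227 and 203 CPM in cKO libraries, with every cKO library higher. Its log2 fold change was 0.81 (SE 0.12), with an adjusted p of 0.0904 in edgeR's quasi-likelihood test, 1.36e-04 in the exact test and 3.68e-07 in DESeq2. Ppt1 lies at chr4:122836077-122859175 (GRCm38.p6), 3.70 Mb from Slc2a1, and the part of this position was not tested. Atp6v0b, at 1.22 Mb on the same chromosome, gave the log2 fold change of -0.03 described above. Further away, the log2 fold change was 0.07 (SE 0.17) for Rragc at 4.78 Mb and 0.02 (SE 0.12) for Fuca1 at 16.8 Mb. It was 0.38 (SE 0.17) for Mtor at 29.3 Mb, -0.42 (SE 0.25) for Rraga at 32.5 Mb and 0.03 (SE 0.15) for Atp6v1g1 at 55.6 Mb.

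Arsb, a sulfatase of dermatan and chondroitin sulfate breakdown on chromosome 13, was the other. It lay at 47.5, 52.2 and 55.9 CPM in control and at 34.2, 31.0, 32.4 and 30.2 CPM in cKO libraries, with every cKO library lower. Its log2 fold change was -0.70 (SE 0.14), with an adjusted p of 0.349 in the quasi-likelihood test of edgeR, 0.0252 in the exact test and 0.00635 in DESeq2. An unadjusted p under 0.05 was found for 6 of the 65 genes, beside 2.58% of all genes. Among the others, and named after their values were seen, were the enzyme Lgmn (-0.40, SE 0.12), the pump assembly factor Dmxl2 (0.36, SE 0.16) and the kinase Mtor (0.38, SE 0.17), each given as its log2 fold change. Lgmn, the asparaginyl endopeptidase, had an adjusted p of 0.9996 in edgeR's quasi-likelihood test.

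**Figure D5:**
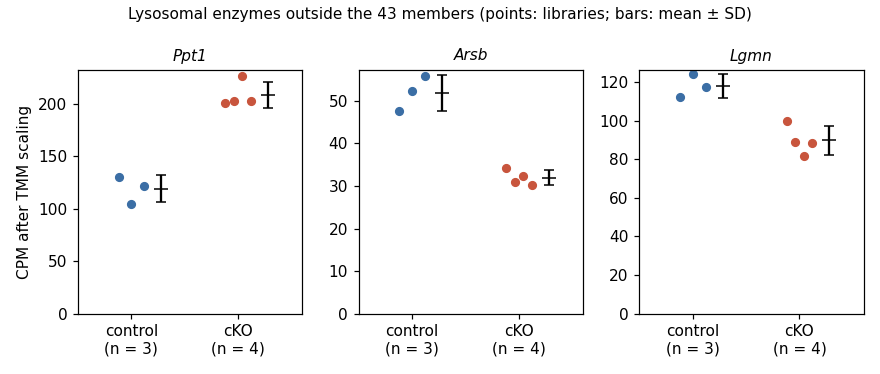
CPM after TMM scaling of 3 lysosomal enzymes outside the 43 genes in each IP library (points), with mean ± SD (bars), axes starting at 0. Ppt1 is higher in all 4 cKO libraries than in any control library, and Arsb and Lgmn are lower, while only Ppt1 and Arsb were called, and by the alternative tests alone.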

How the data were processed

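Single-end Smart-seq2 reads, a protocol that keeps no strand, were trimmed by the authors with cutadapt 1.15 and assigned to GENCODE vM17 transcripts (GRCm38) with kallisto 0.44.0, and estimated counts summed per gene were deposited without normalization. A read that matches several transcripts is divided among them by kallisto, and 38.8% of the values used were not whole. Of 18 columns, the 7 that the study's source data name with a genotype were used, and 11 were not used in any step.

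Counts were rounded, genes of low count were removed with filterByExpr (13296 of 21923 kept) and libraries were scaled by TMM. Genotypes were compared in R 4.3.3 by quasi-likelihood F-test (edgeR 4.0.16), with Benjamini-Hochberg adjustment over all genes tested and a threshold of 0.05. SEs were taken from the F statistic, and 95% intervals from the t distribution. The chi-square per degree of freedom between libraries of one genotype was at least 30.9, so none was counted as a duplicate. The scripts were tested on simulated data. Also tried were scaling by RLE, by upper quartile and by library size, no filter, at least 1 CPM in 3 libraries, edgeR's exact test (used in the study), DESeq2 1.42.0 and leaving out each library.

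The 43 genes and the other lists were chosen with earlier results of these data known, so no test was made over a list. Within the 43, values in every library are given for genes with an unadjusted p under 0.05 or without overlap and the gene of highest mean CPM in each role. They are also given for the 3 paralogue pairs and for genes of the 43 on the chromosome of Slc2a1. Outside the 43 genes, those past the threshold in the quasi-likelihood or the exact test are named, and 1 result is not reported here. The floor of 3 counts covers counting error only. Positions and promoter sequences are those of RefSeq for GRCm38.p6, which matched all 43 genes. Of the 43, 9 overlap the span of another protein-coding gene (Atp6v1b2, Atp6v1g2, Cln3, Ctsa, Ctsb, Ctsz, Glb1, Hexa and Asah1), where reads cannot be assigned by strand.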

Additional observations from a re-analysis of the deposited data

Results flagged for a closer look

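In the 4 cKO libraries, 4 of 66 sets of values held 1 library that stood apart from the other 3 by Dixon's test, where chance gives about 3.3. Atp6v0e lay at 139 CPM in AstroTRAP_17 and at 198 to 207 CPM in the others. Gaa lay at 169 CPM in AstroTRAP_1 and at 157 to 158 CPM in the others. Ppt1 lay at 227 CPM in AstroTRAP_9 and at 201 to 203 CPM in the others. The 18 pump genes summed to 5103 CPM in AstroTRAP_9 and to 5549 to 5613 CPM in the others.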

How the results depend on the processing

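No paired analysis was possible because the columns carry no replicate numbers. None of the 43 genes was called under any of the alternatives run. The further pathway genes called numbered 2 by the exact test and 2 by DESeq2, against 0 as reported. Of all genes tested, 0.135% and 0.158% were called by these tests. Leaving out 1 library at a time, genes without overlap numbered 3 to 8, beside 8.56% to 10.6% of all genes, lysosomal genes below 0 numbered 16 to 24 with a median of -0.16 to -0.037, and pump genes below 0 numbered 8 to 13 with a median of -0.056 to 0.015. The log2 fold change then crossed 0 for Slc2a1 (-0.0382 to 0.0112), Atp6v0a1 (-0.103 to 0.136), Atp6v0a2 (-0.0754 to 0.0985), Atp6v0b (-0.121 to 0.0696), Atp6v0c (-0.0891 to 0.00978), Atp6v0e2 (-0.00277 to 0.0994), Atp6v1e1 (-0.0976 to 0.0108), Atp6v1g1 (-0.102 to 0.115), Atp6v1g2 (-0.228 to 0.0888), Ctsd (-0.127 to 0.00128), Gaa (-0.0501 to 0.0684) and Psap (-0.133 to 0.0853). With library size alone that of Gaa was 0.0069. The cause was not tested.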
